A study of Rattus norvegicus with 12 samples.

Results

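The 8 nephron identity transcription factors Hnf4a, Hnf4g, Ppara, Ppargc1a, Esrra, Esrrg, Pax8 and Tfcp2l1 were taken by gene name from the 2 FPKM tables. Each of the 8 genes had 1 entry per table, of 22132 entries for control and adenine kidneys and 32623 for sham and UUO kidneys. FPKM is a level of RNA, the fragments of a gene scaled by its transcript length and by the fragments mapped in the library. The rule used gene names only, and no measured value, though the members were chosen with earlier results of these data known.

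The 12 libraries were poly(A) RNA of whole rat kidney, with 3 rats in each of 4 groups. All were wild-type male Sprague-Dawley rats, 8 weeks old when bought. Adenine rats received 220 mg/kg of adenine by gavage each day for 3 weeks, and control rats received saline. UUO (unilateral ureteral obstruction) rats had the left ureter tied and were sampled after 2 weeks, while sham rats had the same operation without the ligature. Adenine forms crystals in the tubules of both kidneys, whereas UUO blocks the outflow of 1 kidney and leaves the other working.

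Nephron segments keep their identity through a small set of transcription factors. HNF4-alpha and HNF4-gamma are nuclear receptors of the proximal tubule, where they switch on transporters and enzymes. PPAR-alpha senses fatty acids, the estrogen-related receptors ERR-alpha and ERR-gamma drive mitochondrial genes, and PGC-1-alpha (Ppargc1a) is the coactivator that these receptors share. Pax8 marks renal epithelium from the first nephron precursors onward, and Tfcp2l1 acts in the collecting duct, where it controls genes of principal and intercalated cells.

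RefSeq windows on build GRCr8, from 250 bases before to 50 after each start, were found for 7 of the 8 members, 11 windows in all, and Hnf4g was not matched. Those of Ppargc1a and Esrrg that held a searched motif are given because both genes fell in at least 1 model. Each motif was sought on both strands, with the match in capitals, and the cyclic AMP response element was added after the windows had been read. The Ppargc1a window, chr14:63634058-63634357 on the plus strand, holds the cyclic AMP response element TGACGTCA at -181. The 1 Esrrg window of 4 with a match, chr13:101755510-101755809 on the plus strand, holds the nuclear receptor hexamer AGGTCA in its reverse form at -135.
Ppargc1a: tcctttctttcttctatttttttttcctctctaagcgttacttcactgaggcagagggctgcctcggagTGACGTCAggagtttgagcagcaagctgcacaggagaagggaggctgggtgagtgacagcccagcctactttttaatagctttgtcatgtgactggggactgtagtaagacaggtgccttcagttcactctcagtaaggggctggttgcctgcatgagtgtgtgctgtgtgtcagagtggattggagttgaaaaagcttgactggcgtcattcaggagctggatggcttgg
Esrrg: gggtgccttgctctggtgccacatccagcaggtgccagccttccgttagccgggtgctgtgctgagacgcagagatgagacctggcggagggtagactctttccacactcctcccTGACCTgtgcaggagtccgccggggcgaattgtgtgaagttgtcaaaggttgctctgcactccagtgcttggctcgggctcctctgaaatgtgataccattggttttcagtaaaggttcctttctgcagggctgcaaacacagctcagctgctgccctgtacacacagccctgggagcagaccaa
The cyclic AMP response element was found in 1.83% of all 33469 promoter windows and the hexamer in 16.2%. The ERR element TCAAGGTCA, which contains the hexamer, was in 0 of the 11 member windows and in 0.433% of all windows. The HNF4 element CAAAGTCCA was in 0 of the 11 and in 0.391% of all, and the DR1, 2 hexamers in a row with 1 base between, was in 0 of the 11 and in 0.0538% of all. These matches describe the letters of these windows only, and gene-level FPKM does not say which start a transcript used.

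The linear models of limma were fitted to log2(FPKM + 0.1) in each table separately, keeping entries that reached 0.5 FPKM in 3 or more of 6 libraries. All 8 members passed in both tables. A gene rose or fell where its Benjamini-Hochberg adjusted p was under 0.05, and a DEG also moved by 2 or more on the log2 scale in either direction. In the adenine model 4 of the 8 members fell (Hnf4a, Hnf4g, Esrra and Esrrg) and 0 rose by limma, with 5 at an unadjusted p under 0.05, the fifth being Pax8. Among the 15029 genes tested, 19.9% fell and 39.6% rose. In the UUO model 7 of the 8 fell and Pax8 rose, where 14.4% of the 15043 genes tested fell and 56.1% rose. Of these UUO calls, that of Tfcp2l1 was lost in 9 of 15 alternatives and that of Pax8 with median-of-ratios scaling. The median log2 fold change of the 8 members was -0.47 with adenine and -1.06 with UUO, against 0.30 and 0.62 for all genes tested.

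As DEGs, Hnf4a and Hnf4g fell in the adenine model, where 5.03% of genes did, and only Hnf4g fell in the UUO model, where 4.21% did. The 3 diseased and 3 reference libraries did not overlap for 5 members in the adenine model, beside 68% of all genes tested. With UUO they did not overlap for 7 members, beside 75.7% of all genes. With 3 against 3, an exact permutation test of a single gene cannot go below p = 0.1.

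The FPKM of most genes tested was higher in diseased kidneys, so changes are also given relative to that shift. Median-of-ratios scaling, which sets the typical gene to the same level in all libraries, brought the median log2 fold change of all genes to 0.01 (adenine) and 0.03 (UUO). The share of calls that fell went from 33.5% to 49.4% with adenine and from 20.4% to 50.1% with UUO. Relative to the median of all genes as deposited, the adenine changes were -3.20 for Hnf4g and -2.72 for Hnf4a on the log2 scale, and the UUO changes were -3.54 and -2.54.

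**Figure D1:**
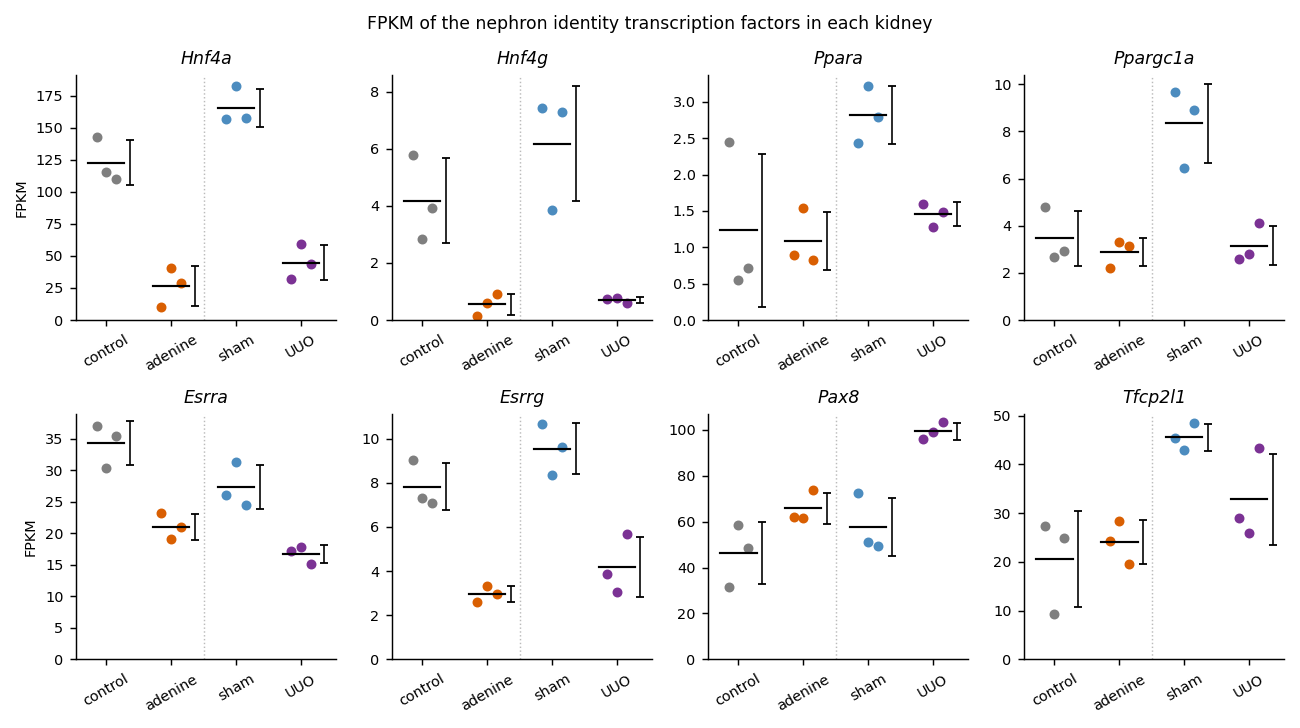
FPKM of each member in every kidney, with 1 point per rat, a line at the group mean and a bar of 1 SD beside it. Hnf4a, Hnf4g, Esrra and Esrrg sit lower in all diseased kidneys of both models, while Pax8 sits higher.

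Hnf4a, the master regulator of the proximal tubule, lost most of its transcript in both models. Its FPKM was 143, 116 and 109.8 in control kidneys and 9.93, 40.5 and 28.8 in adenine kidneys. The groups lay far apart, and adenine replicate 1 was the lowest by a wide margin. The mean went from 123 ± 17.6 (SD, n = 3) to 26.4 ± 15.4 (SD, n = 3), a log2 fold change of -2.42 (SE 0.48, adjusted p = 0.0050, limma). Without adenine replicate 1 the log2 fold change was -1.83 (limma adjusted p = 0.0010), short of a DEG. In sham kidneys Hnf4a stood at 156, 183 and 157 FPKM and in UUO kidneys at 31.6, 59.5 and 43.4. Again all 3 obstructed kidneys lay below every sham kidney. The UUO log2 fold change was -1.93 (SE 0.22, adjusted p = 0.00030, limma), 3.80-fold lower. In RNA of whole kidney, fewer cells of a type and less RNA per cell cannot be told apart.

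Hnf4g, the paralogue of Hnf4a in the same tubule cells, had the lowest log2 fold change of the members in both models on this scale. Its FPKM was 5.77, 2.82 and 3.94 in control kidneys and 0.140, 0.597 and 0.901 in adenine kidneys. All adenine values were below 1 FPKM. The log2 fold change was -2.90 (SE 0.56, adjusted p = 0.0043, limma), 7.45-fold lower. Without adenine replicate 1, the lowest library, it was -2.30 (limma adjusted p = 0.0036). Sham kidneys had 7.41, 3.85 and 7.27 FPKM and UUO kidneys 0.737, 0.778 and 0.583. The obstructed kidneys were close to one another and far below sham replicate 2, the lowest sham. On the log2 scale the change was -2.92 (SE 0.30, adjusted p = 0.00018, limma), 7.58-fold lower. These folds are on the log2(FPKM + 0.1) scale and understate a change that ends this low, and with a pseudocount of 1 they were -1.74 and -2.04, against -2.37 and -1.90 for Hnf4a.

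Esrrg, the ERR receptor of the most oxidative segments, fell in both models. Control kidneys had 9.04, 7.31 and 7.09 FPKM and adenine kidneys 2.59, 3.34 and 2.96. The groups were tight and did not overlap. This gave a log2 fold change of -1.37 (SE 0.17, adjusted p = 0.00062, limma). Sham kidneys had 10.7, 8.35 and 9.61 FPKM and UUO kidneys 3.85, 3.04 and 5.68, with UUO replicate 3 the nearest to sham. The fitted log2 change was -1.21 (SE 0.24, adjusted p = 0.0035, limma).

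Esrra, the more widely expressed ERR receptor, fell less but with little spread. Its FPKM was 37.1, 30.4 and 35.5 in control kidneys and 23.2, 19.0 and 21.0 in adenine kidneys. In sham kidneys it was 26.1, 31.3 and 24.6, and in UUO kidneys 17.2, 17.8 and 15.1. All diseased kidneys lay below every reference kidney of their table. Adenine gave a log2 fold change of -0.70 (SE 0.12, adjusted p = 0.0030, limma) and UUO one of -0.70 (SE 0.12, adjusted p = 0.0021, limma).

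Ppargc1a, the coactivator of ERR receptors and PPAR-alpha and a driver of mitochondrial formation, fell in the UUO model. Sham kidneys had 9.67, 6.45 and 8.91 FPKM and UUO kidneys 2.58, 2.81 and 4.10, which did not overlap. On the log2 scale the change was -1.38 (SE 0.23, adjusted p = 0.0018, limma), 2.60-fold lower. In the adenine table the control kidneys had 4.81, 2.67 and 2.94 FPKM and the adenine kidneys 2.21, 3.32 and 3.14. These ranges overlapped, and the log2 fold change of -0.23 ± 0.28 did not pass the test (SE; limma adjusted p = 0.50). Control replicate 1 set its sign, since without it the value was 0.021, while under quantile normalization Ppargc1a fell by 0.72 (limma adjusted p = 0.040).

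Ppara, the fatty acid receptor that induces peroxisomal and mitochondrial oxidation, had the lowest reference level of the members. Sham kidneys had 2.43, 3.22 and 2.79 FPKM and UUO kidneys 1.60, 1.27 and 1.49, and these did not overlap. This gave a log2 fold change of -0.90 (SE 0.19, adjusted p = 0.0052, limma), 1.87-fold lower. Control kidneys had 2.45, 0.544 and 0.716 FPKM, so replicate 1 stood far above the others, and adenine kidneys had 0.893, 1.55 and 0.825. The adenine log2 fold change was 0.06 (SE 0.55, adjusted p = 0.94, limma). It took either sign across alternatives, from -0.50 under quantile normalization to 0.66 without control replicate 1.

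Pax8, the pan-epithelial paired-box factor, was the only member to rise. Sham kidneys had 72.4, 51.0 and 49.6 FPKM and UUO kidneys 96.1, 98.9 and 103, with all obstructed kidneys above every sham. The fitted log2 change was 0.81 (SE 0.15, adjusted p = 0.0029, limma), 1.75-fold higher. That is 0.19 above the median of all genes, and with median-of-ratios scaling it was 0.20 and no longer passed (limma adjusted p = 0.30). Control kidneys had 31.6, 58.4 and 48.4 FPKM and adenine kidneys 62.0, 61.7 and 73.6. The adenine kidneys again lay above every control, but the log2 fold change of 0.55 ± 0.23 did not pass (SE; limma adjusted p = 0.074). Pax8 stayed positive under all 15 alternatives with a test in each model.

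Tfcp2l1, the collecting duct factor, overlapped between diseased and reference kidneys in both models. Control kidneys had 27.4, 9.23 and 24.9 FPKM and adenine kidneys 24.4, 28.4 and 19.5. The adenine values lay inside or next to the range of the controls, and the log2 fold change was 0.36 (SE 0.41, adjusted p = 0.47, limma). Without control replicate 2, the lowest library, it was -0.13 (limma adjusted p = 0.55). Sham kidneys had 45.4, 42.9 and 48.4 FPKM and UUO kidneys 29.0, 26.0 and 43.5. UUO replicate 3 lay inside the sham range and the other two far below it. The log2 fold change of -0.51 ± 0.19 was close to the threshold (SE; limma adjusted p = 0.048). It passed in 6 of 15 alternatives, with adjusted p from 0.0015 to 0.22, and without UUO replicate 3 it was -0.73 (limma adjusted p = 0.00196).

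**Figure D2:**
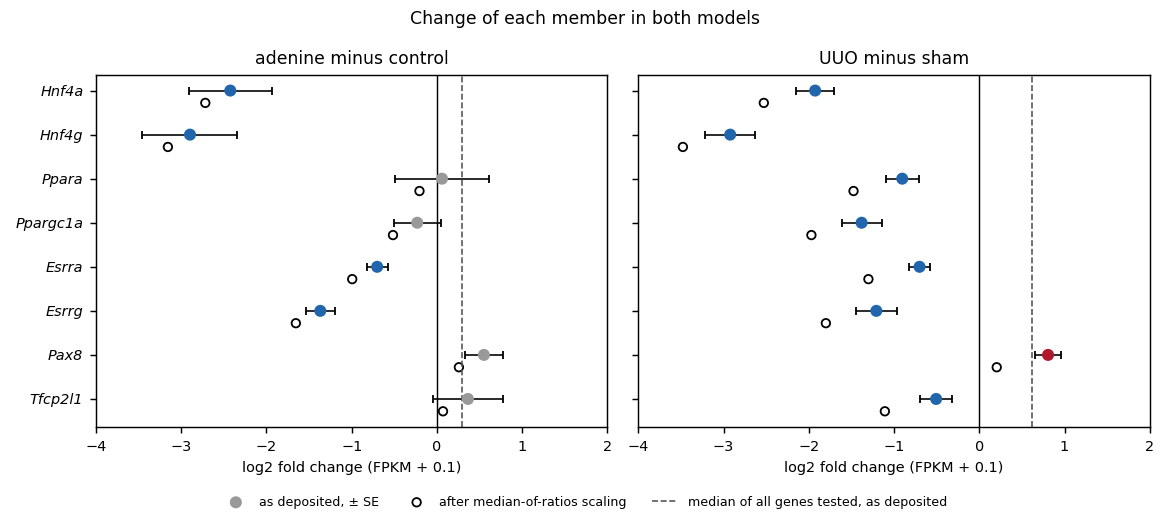
Log2 fold change of each member with its SE in both models (blue fell, red rose, grey did not pass the test), with open circles after median-of-ratios scaling and a dashed line at the median of all genes tested. Hnf4a and Hnf4g lie furthest left, and the UUO change of Pax8 of 0.81 moves to 0.20 after scaling.

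FPKM is a level per transcript length, so members can be set in order within a group. In control kidneys Hnf4a was highest at a mean of 123 FPKM, followed by Pax8 at 46.1, Esrra at 34.3, Tfcp2l1 at 20.5, Esrrg at 7.81, Hnf4g at 4.18, Ppargc1a at 3.47 and Ppara at 1.24. The ranges of Pax8 and Esrra overlapped, as did those of Hnf4g and Ppargc1a. In sham kidneys Hnf4a (166 FPKM) and Pax8 (57.7) again led, then Tfcp2l1 (45.6), Esrra (27.3), Esrrg (9.55), Ppargc1a (8.34), Hnf4g (6.18) and Ppara (2.82). Esrrg overlapped Ppargc1a there, and Ppargc1a overlapped Hnf4g.

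Both diseased groups had another order, with Pax8 first and Hnf4g last. In adenine kidneys Pax8 had 65.8 FPKM and lay apart from Hnf4a at 26.4, whose range overlapped that of Tfcp2l1 at 24.1. Hnf4g ended at 0.546 FPKM, with a range that overlapped that of Ppara at 1.09. In UUO kidneys Pax8 had 99.4 FPKM, Hnf4a 44.8 and Tfcp2l1 32.8, with the latter pair overlapping. Hnf4g at 0.699 lay below every Ppara value there. The tables were normalised separately, so the higher Tfcp2l1 and Ppargc1a of sham than of control kidneys was not tested.

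The reference kidneys differed in segment markers, and some members varied among them more than others. Control replicate 2 had 12.9 FPKM of the distal tubule transporter Slc12a3 against 197 and 164 in the other controls. The calcium-binding distal tubule gene Calb1 was at 27.5 FPKM there against 407 and 189.6. The water channel Aqp4 was instead highest in that kidney, at 8.71 FPKM against 3.05 and 2.62. Tfcp2l1 was lowest in the same kidney, 2.96-fold below the highest control. Control replicate 1 had the most Slc5a2, the glucose transporter of the early proximal tubule, at 13.7 FPKM against 0.232 and 2.47, and also the most Ppara. Esrra and Esrrg varied by at most 1.28-fold between the highest and lowest kidney of either reference group. These marker genes were chosen after their values were seen, and the part of segment content in the changes of Ppara and Tfcp2l1 was not tested. Without control replicate 2 the same 4 members fell in the adenine model, and Pax8 passed as risen at 0.74 (limma adjusted p = 0.026).

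**Figure D3:**
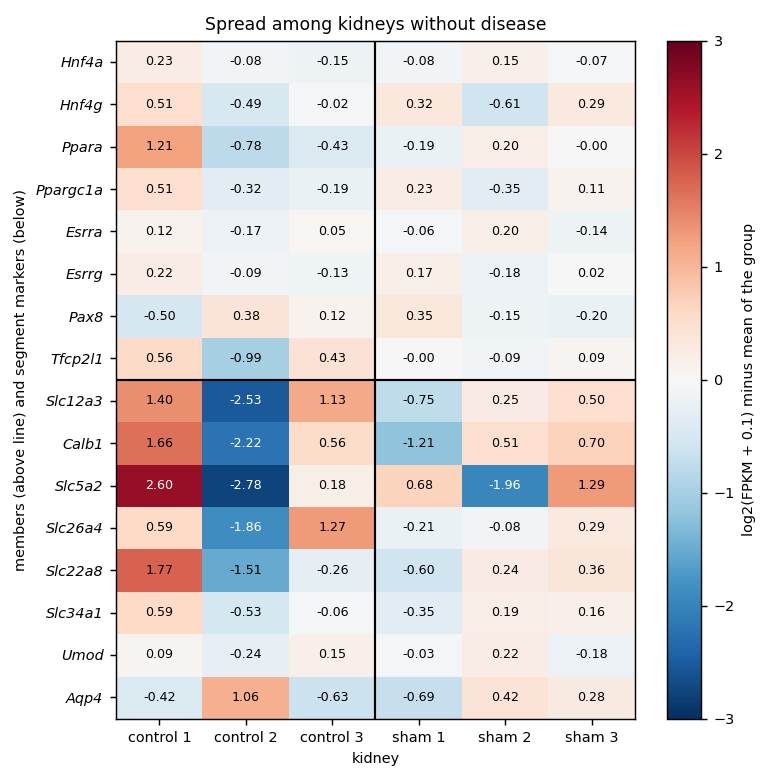
Difference of each control and sham kidney from its group mean, in log2(FPKM + 0.1), for the 8 members and 8 segment markers. Control 2 is lowest for Tfcp2l1 (-0.99), Slc12a3 (-2.53) and Slc5a2 (-2.78), while Hnf4a stays between -0.15 and 0.23 in all 6 kidneys.

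The changes in the 2 models were compared directly by the difference of their log2 fold changes, over 13486 genes listed once and tested in both tables. Ppargc1a was the only member of 8 called, beside 27% of all genes. Its change was 1.15 ± 0.36 higher in the adenine model than in the UUO model (SE; limma-based adjusted p = 0.033). The call held in 7 of 16 alternatives, with adjusted p from 0.010 to 0.077, and was lost with the replicate block and without control 2 or 3, adenine 2 or 3, sham 1 or 3, or UUO 1 or 2. Of the others, Ppara differed by 0.96 ± 0.58 (SE; adjusted p = 0.24) and Tfcp2l1 by 0.87 ± 0.45 (SE; adjusted p = 0.17), both from the same limma fits. Without control replicate 1 the Ppara difference was 1.57 and passed (limma-based adjusted p = 0.015). For Hnf4a, Hnf4g, Esrra, Esrrg and Pax8 the differences lay between -0.50 and 0.02, with SE from 0.17 to 0.63. A difference that misses the threshold does not show that the models act alike.

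The 13 family and partner genes split in both models. With adenine 3 fell and 3 rose, and with UUO 3 fell and 5 rose. With median-of-ratios scaling 4 fell and 2 rose in each. Esrrb, the third ERR receptor, was low in the reference kidneys and fell in both models (-2.23 and -3.45 on the log2 scale). All 3 ERR genes thus fell in both models, also with median-of-ratios scaling, quantile normalization and FPKM rescaled to the same sum.

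The PGC-1 family did not move as a block. Ppargc1b, a close relative of Ppargc1a, fell by 1.16 in the UUO model (limma adjusted p = 0.0028) and was at 0.66 in the adenine model (limma adjusted p = 0.088). Pprc1, the third family member, which responds to growth signals, rose by 1.18 in the adenine model (limma adjusted p = 0.00079) and by 1.94 in the UUO model (limma adjusted p = 6.8e-05).

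The retinoid X receptors, which pair with PPAR-alpha on DNA, also moved apart. Rxra rose from 8.36, 2.65 and 5.13 FPKM to 17.0, 15.5 and 16.4 in adenine kidneys, a log2 fold change of 1.72 (SE 0.38, adjusted p = 0.0073, limma). In the UUO model Rxra rose by 0.65 and Rxrb by 0.50, about the shift of all genes, and neither passed with median-of-ratios scaling. Rxrb fell by 0.70 in the adenine model (limma adjusted p = 0.0076). Rxrg did not pass, at 0.88 and -0.86, though its UUO change passed as a fall with median-of-ratios scaling. Pparg, the PPAR of fat cells and macrophages, rose by 2.05 in the UUO model (limma adjusted p = 0.00024) and was at 1.60 in the adenine model (limma adjusted p = 0.10), where adenine replicate 1 had 13.3 FPKM against 2.05 and 2.23. Ppard, the widely expressed PPAR, did not pass in either model, at 0.35 and 0.45.

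Pax2, the paralogue of Pax8, did not pass in either model, at -0.00 and 0.35 on the log2 scale (limma adjusted p = 1.0 and 0.25). Of the relatives of Tfcp2l1, Tfcp2 did not pass, at 0.24 and 0.34. Ubp1 rose by 0.46 and 0.69, a change that did not pass with median-of-ratios scaling.

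Of 19 other tubule transcription factors, 9 fell and 1 rose in the adenine model, and 12 fell and 2 rose in the UUO model. Klf15, which drives amino acid breakdown, fell in both models (-2.75 and -2.18), as did Emx1 (-2.60 and -2.38). Elf5, a factor of principal cells, also fell in both (-1.13 and -3.28), though its adenine call did not pass with FPKM rescaled to the same sum. Cux1 rose by 1.65 in the adenine model. Emx2 and Grhl2, an epithelial factor, rose by 0.44 and 0.53 in the UUO model, which did not pass with median-of-ratios scaling.

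Podocyte transcription factors gave 2 falls and 1 rise of 6 in the adenine model, and 1 fall and 3 rises in the UUO model. Lmx1b fell in both (-1.62 and -0.56), though neither call passed with FPKM rescaled to the same sum, and Foxc1 fell by 1.26 in the adenine model. Tcf21, which fibroblasts also express, rose by 2.10 in the UUO model. Of 9 injury transcription factors with a value, 7 rose with adenine and 8 with UUO. Runx1 rose by 3.82 and 3.78, and Atf3 went from at most 2.98 FPKM in reference kidneys to at least 29.4 in diseased kidneys. Cebpb was the 1 that fell in the adenine model, by 1.42, while in the UUO model it rose by 1.18, a call lost with median-of-ratios scaling.

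Genes known as HNF4 targets fell in larger number with UUO than with adenine, a contrast that was not tested. In the adenine model 3 of 8 tested fell, 1 rose and 4 did not pass, with a median log2 fold change of -1.04 against 0.30 for all genes. In the UUO model 7 of 8 fell and 1 rose, with a median of -3.62 against 0.62. Slc22a6, the organic anion transporter OAT1, fell in both models (-3.88 and -4.54). Apom, an apolipoprotein, also fell in both (-3.31 and -3.87). Pck1, the key enzyme of gluconeogenesis, went from 1459, 1184 and 839 FPKM in sham kidneys to 38.2, 65.6 and 60.7 in UUO kidneys (log2 fold change -4.40). In the adenine table Pck1 had 914, 181 and 1065 FPKM in controls and 326, 553 and 341 in adenine kidneys, and did not pass. Slc2a2, the glucose transporter GLUT2, rose by 2.17 and 2.38 and was the only listed target to rise. Apob and Ttr, liver targets, were under the minimum FPKM in both tables.

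PPAR-alpha targets moved in both directions. In the adenine model 9 of 18 tested fell and 2 rose, and in the UUO model 12 fell and 2 rose. Cyp4a2, a fatty acid hydroxylase, fell in both models (-3.32 and -3.56). Acadm, the medium-chain dehydrogenase of mitochondrial oxidation, also fell in both (-2.40 and -2.09). So did Ehhadh, a peroxisomal oxidation enzyme (-2.23 and -3.61). Plin2, which coats lipid droplets, rose by 2.30 and 1.53, and Angptl4, a secreted inhibitor of lipoprotein lipase, by 2.94 and 2.96. The UUO call of Angptl4 did not pass with median-of-ratios scaling. Between 6 and 11 targets fell in the adenine model across the 3 scalings. Ppara itself did not pass in that model.

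ERR and PGC-1 targets, nuclear genes of mitochondrial proteins, mostly fell. With adenine 10 of 15 tested fell and 1 rose, and in the UUO model 12 fell and 0 rose by limma, with 1 higher at an unadjusted p under 0.05 (Tfam, which maintains mitochondrial DNA, named after its values were seen). The medians were -0.62 and -1.02. Cycs, cytochrome c, fell in both models (-3.55 and -2.53), but it has many near-identical pseudogene copies that could share its reads, so its level is uncertain. Uqcrc2, a complex III subunit, also fell in both (-1.11 and -1.23). Cs, citrate synthase, rose by 0.67 in the adenine model, which did not pass with median-of-ratios scaling. Of their regulators, Esrra and Esrrg fell in both models and Ppargc1a in the UUO model.

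Collecting duct genes, among them known targets of Tfcp2l1, mostly fell. In the adenine model 7 of 11 fell and 0 rose, with a median of -1.20, and in the UUO model 10 of 11 fell and 0 rose, with a median of -1.63, all by limma. At an unadjusted p under 0.05, 0 of the 11 rose in either model. Slc4a1, the anion exchanger of acid-secreting intercalated cells, fell in both (-3.89 and -2.85). Slc26a4, pendrin of base-secreting cells, also fell in both (-3.67 and -0.96). So did Aqp2, the vasopressin-regulated water channel of principal cells (-0.98 and -3.36).

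**Figure D4:**
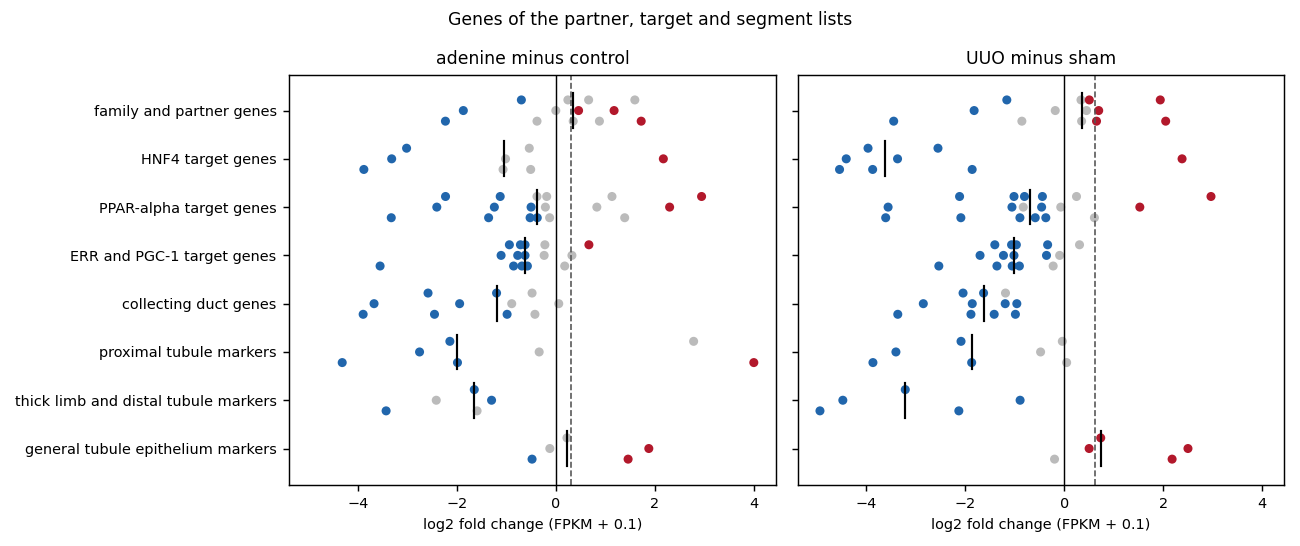
Log2 fold change of each tested gene of 8 lists in both models (blue fell, red rose, grey did not pass), with a bar at each list's median and a dashed line at the median of all genes tested. Most HNF4 targets, ERR and PGC-1 targets and collecting duct genes lie left of 0, and family and partner genes spread to both sides.

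Most segment markers that passed the test fell, and markers of other cells rose. Of 7 proximal tubule markers, 4 fell in each model, led by the phosphate transporter Slc34a1 (-4.31 and -3.86). Lrp2, the endocytic receptor megalin, fell in both models (-2.75 and -2.09), as did Slc13a3, a dicarboxylate transporter (-1.99 and -3.40). Slc5a12, a lactate transporter, rose from 1.81, 0.0254 and 0.362 FPKM to 3.22, 10.7 and 12.5 in the adenine model. Of 5 thick limb and distal tubule markers tested, 3 fell with adenine and 5 with UUO. Umod, uromodulin, fell in both (-3.43 and -4.47). The salt transporter Slc12a1 also fell in both (-1.65 and -2.13). Calb1 fell in the UUO model (-4.93) and did not pass in the adenine model (-2.41). General tubule epithelium markers gave 1 fall (Epcam, -0.48) and 2 rises of 5 in the adenine model, and 4 rises in the UUO model, of which 2 passed with median-of-ratios scaling. The rises were led in both by Krt18 (1.88 and 2.50) and Krt8 (1.46 and 2.18), keratins of simple epithelium.

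The summed FPKM of 7 leukocyte markers was between 324 and 561 in controls and between 8226 and 14345 in adenine kidneys. In the other table it was between 450.4 and 703 in shams and between 3199 and 4584 in UUO kidneys. All 6 leukocyte markers tested rose in the adenine model, led by Cd68 (6.20) and Lyz2 (5.65), and all 7 in the UUO model, led by C1qa (3.87) and Cd68 (3.71). The 5 fibroblast markers all rose in both, except that Acta2 did not pass in the adenine model with median-of-ratios scaling, led by Postn (4.55 and 6.37) with Col3a1 (4.05) in the adenine model and Col1a1 (5.27) in the UUO model. Lcn2 and Havcr1, markers of injured tubules, rose by 7.08 and 6.43 in the adenine model and by 5.99 and 6.80 in the UUO model.

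Urothelium markers, of the lining of the renal pelvis, summed to at most 2.65 FPKM in shams and at least 69.4 in UUO kidneys. Upk3a and Upk1b led the 4 that rose. In the adenine model 0 of 2 tested passed by limma, and 0 at an unadjusted p under 0.05. Of 4 podocyte markers Podxl fell with adenine (-1.46), while with UUO Synpo rose (1.18), a call lost with median-of-ratios scaling. Of 3 endothelial markers with a value, Emcn fell (-1.79) and Cdh5 rose (0.84, lost with median-of-ratios scaling) in the adenine model, and Cdh5 rose (2.48) in the UUO model. The part of cell content in the members' changes was not tested.

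Ratios within a kidney hardly depend on how libraries are scaled, so 11 of them were compared in each model, 22 tests in all. A list stands for the mean of log2(FPKM + 0.1) over its genes. Groups that did not overlap gave an exact permutation p of 0.1 (two-sided), the smallest that 3 against 3 allow, so no ratio could pass 0.05, and a Benjamini-Hochberg adjusted p of 0.22 over the 22. Hnf4a against 7 proximal tubule markers had a log2 ratio of 1.00, 2.34 and 1.38 in controls and -0.34, -0.21 and 0.03 in adenine kidneys. It was thus lower in all adenine kidneys, by 1.75 on average. The marker list includes Slc5a12, which rose, and Slc5a2, which was higher but did not pass. Both were low in controls, down to 0.0254 and 0.232 FPKM. The other markers changed by -4.31 (Slc34a1), -2.75 (Lrp2), -2.14 (Aqp1), -1.99 (Slc13a3) and -0.34 (Cubn), beside -2.42 for Hnf4a. The lower ratio therefore does not show that Hnf4a fell further than these markers, and the ratio without Slc5a12 and Slc5a2 was not tested. In the UUO model the ratio differed by -0.26 and the groups overlapped. Hnf4g against the same markers was lower in both models (-2.22 and -1.25), without overlap in either, though with a pseudocount of 1 the UUO groups overlapped (-0.36). Its adenine ratio also includes Slc5a12 and Slc5a2, and was not tested without them.

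Tfcp2l1 against 11 collecting duct genes went the other way. Its log2 ratio was -0.35, -1.41 and -0.75 in controls and between 0.87 and 1.43 in adenine kidneys. In shams it was 0.69, 0.27 and 0.48 and in UUO kidneys 1.55, 1.73 and 1.92. The groups did not overlap in either model, with differences of 2.04 and 1.25. Esrrg against 6 thick limb and distal tubule markers was 1.24 higher in UUO kidneys without overlap, and 0.47 higher with overlap in adenine kidneys. These 6 include Pvalb, which was under the minimum FPKM in both tables, though it had 0.646 FPKM in UUO replicate 1. The Esrrg ratio without Pvalb was not tested.

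Ppara against Rxra was lower without overlap in both models (-1.67 and -1.55). Esrra against Esrrg was higher by 0.67 in adenine kidneys without overlap and by 0.51 with overlap in UUO kidneys. Pax8 against Pax2 was higher by 0.46 in UUO kidneys without overlap and by 0.55 with overlap in adenine kidneys. Pax8 against 5 general epithelium markers overlapped in both, at -0.04 and -0.34. The ratios of Hnf4a to Hnf4g (0.47 and 1.00), of Ppargc1a to Ppargc1b (-0.89 and -0.22) and of Ppara to proximal tubule markers (0.74 and 0.77) also overlapped. With a pseudocount of 1 the ratio of Hnf4a to Hnf4g turned to -0.63 in the adenine model.

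**Figure D5:**
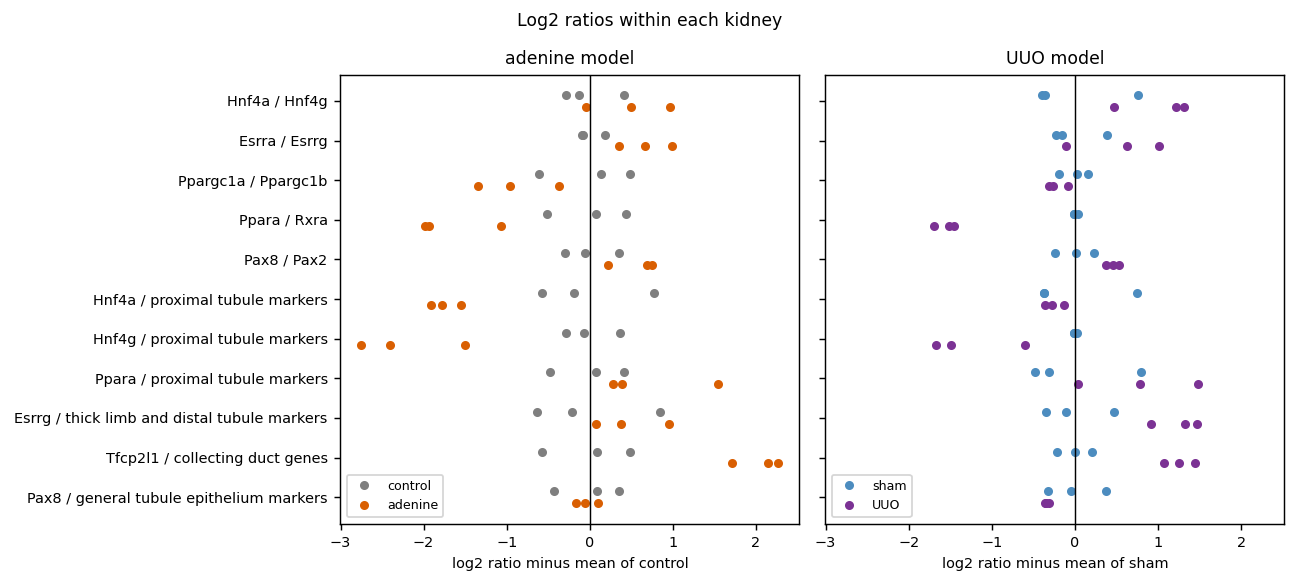
Log2 ratio of each pair in every kidney minus the mean of the reference group, with 1 point per rat. Tfcp2l1 against collecting duct genes lies right of all reference kidneys in both models, and Ppara against Rxra lies left.

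The genes most like each member were found by Pearson r of log2(FPKM + 0.1) minus the reference mean of the same table, over 12 libraries and 13485 other genes. These r are descriptions, since the 12 libraries share tables and disease groups. Hnf4a was most like Lrp2 (r = 0.993), then Pdzk1 (0.992), a scaffold of brush-border transporters, and Smim24 (0.991). Hnf4g was nearest Asb13 (0.990), Pyroxd2 (0.975) and Aldh8a1 (0.974), an enzyme of tryptophan breakdown. Esrrg was nearest AC096809 (0.989), Pjvk (0.980) and Pdha1 (0.979), a subunit of pyruvate dehydrogenase. Esrra was nearest Cystm1 (0.976), Efhd1 (0.970), a mitochondrial calcium-binding protein, and Tmem116 (0.963).

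The remaining members had nearest genes of other kinds. Ppargc1a was nearest Lclat1 (0.956), an acyltransferase of cardiolipin, Nek2 (0.943) and Sec24a (0.942). Ppara was nearest Sgpp1 (0.933), Cfap126 (0.931) and LOC100911558 (0.925), and Tfcp2l1 was nearest Cwh43 (0.934), AABR07027306 (0.926) and Marc1 (0.918). Pax8 was nearest Pmaip1 (0.984), a pro-apoptotic p53 target, LOC103689965 (0.967) and Cyp46a1 (0.966). Among the members, Hnf4a and Hnf4g had r = 0.94, Hnf4g and Esrrg 0.92 and Hnf4a and Esrrg 0.89. Pax8 had a negative r with each of the other 7, from -0.44 with Tfcp2l1 to -0.84 with Esrra. Ppara was more like Ppargc1a (0.76) and Tfcp2l1 (0.75) than like Hnf4a (0.32), and Tfcp2l1 had r = -0.01 with Hnf4a.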

How the data were processed

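Poly(A) RNA of 12 rat kidneys was sequenced as paired-end dUTP libraries on an Illumina NovaSeq. Per the labels' processing notes the tools were cutadapt 1.9, HISAT2 2.0.4, StringTie 1.3.4d, edgeR and DESeq2. The genome build and annotation are not given in the sources used here. The authors deposited FPKM values per gene in 2 tables, and these hold no counts, so the depth behind each value is unknown and precision is given by the 3 rats of a group. FPKM sums were between 468389 and 630244 per library, and 0.0001 was the lowest value in the sham and UUO table. No column of another sample was present (0 unused).

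The study's test needs counts, so limma 3.58.1 in R 4.3.3 (lmFit, eBayes with trend) was run on log2(FPKM + 0.1), with Benjamini-Hochberg adjustment over all entries tested in a table. The minimum was an FPKM of 0.5 in 3 of 6 libraries. To compare models, the gap between both limma log2 fold changes was divided by the root of the summed squared SE, adjusted over all genes in both tables. On simulated data with 200 changed genes, a log2 shift of 2 was recovered for 83.0% (adenine, 15029 genes), 92.0% (UUO, 15043 genes) and 91.0% (difference, 13486 genes). For a shift of 1 these shares were only 41.5%, 59.5% and 51.5%. The changed genes were drawn from those with 2 FPKM or more in the reference mean or in 3 libraries. The mean of Ppara in controls, 1.24, lies below that. Ratios were tested by exact permutation (Python 3.11.15, scipy 1.17.1).

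Text names all 8 members, all family and partner genes, in each other list the 2 largest rises and 2 largest falls called in a model, and the 3 nearest genes of each member. Some listed genes are counted but not reported here by name. Members and lists were chosen with earlier results of these data known. Groups and replicates came from the labels, which number separate rats. Alternatives were other pseudocounts (1, 0.01), filters, scalings, eBayes without trend, a replicate block, and leaving out each library. Promoter windows came from RefSeq (GRCr8).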

Additional observations from a re-analysis of the deposited data

Results flagged for a closer look

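The change of Ppargc1a, the mitochondrial coactivator, differed between the 2 models by the test of the difference. Its log2 fold change in the adenine model minus that in the UUO model was 1.15 ± 0.36 (SE; limma-based adjusted p = 0.033), with all 3 UUO kidneys below every sham kidney and 1 of 3 adenine kidneys below every control. The call held in 7 of 16 alternatives. The mean was 3.47 FPKM in control and 2.89 in adenine kidneys, and 8.34 in sham and 3.16 in UUO kidneys. The tables were normalised separately, so these means were not tested across tables.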

How the results depend on the processing

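Depth is unknown without counts, and 3 rats a group limit what small changes can pass. Of 255 alternative values of the members' log2 fold changes, 232 were counted as unchanged, which for a fit means the same direction and side of the threshold. The 255 include each member's log2 ratio of mean FPKM, which has no test and was always counted as unchanged. For Ppara in the adenine model that ratio was -0.18, against 0.06 in the main fit. Members falling in the adenine model numbered 4 in all alternatives but quantile normalization, which gave 5, and those in the UUO model numbered 6 or 7. Members rising in the adenine model numbered 1 under quantile normalization and with FPKM rescaled to the same sum, and 0 to 1 when leaving out 1 library. Those rising in the UUO model were 0 with median-of-ratios scaling. DEGs in the adenine model were 1 with a pseudocount of 1 and 1 to 2 when leaving out 1 library. In the UUO model they were 2 with median-of-ratios scaling, 3 with quantile normalization, and 1 to 2 when leaving out 1 library. Replicate numbers were not taken to pair the rats, since the labels number separate rats. Deviations of same-numbered libraries had r from -0.12 to -0.05 in the adenine table and 0.05 to 0.11 in the UUO table. Those of differently numbered libraries had r from -0.04 to 0.11 and from -0.08 to 0.02. In the UUO table same-numbered libraries were thus slightly more alike. Members differing between the models were 0 with the replicate block and 0 to 2 when leaving out 1 library. The block changed no other member's call, and Ppargc1a differed by 1.15 with it (limma-based adjusted p = 0.060).

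Directions turned for Ppara in the adenine model with pseudocount 1 (-0.018), median-of-ratios scaling (-0.21) and quantile normalization (-0.50), and from -0.33 to 0.66 when leaving out 1 library. Ppargc1a turned to 0.030 with FPKM rescaled to the same sum and was -0.39 to 0.021 when leaving out 1 library, and Tfcp2l1 was -0.13 to 0.64. Differences between the models turned with median-of-ratios scaling for Esrra (0.31), Esrrg (0.14) and Pax8 (0.053) and with quantile normalization for Esrra (0.35) and Esrrg (0.10). When leaving out 1 library they ran from -0.92 to 0.091 for Hnf4a, -0.41 to 0.62 for Hnf4g, -0.10 to 0.071 for Esrra and -0.36 to 0.078 for Esrrg. The minimum FPKM of 1 left Ppara untested in the adenine model. The cause of these changes was not tested.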
